A study of Mus musculus with 16 samples.

Results

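The genes described here are 32 members of cholesterol metabolism in mouse skin, chosen by name from the 48440 genes of the count table. They cover 19 enzymes of synthesis, 5 genes of SREBP control, 3 of intracellular cholesterol transport, 2 efflux transporters, and the LXR receptors with their target Mylip. All 32 were found under a single gene identifier each, and all 32 were among the 17604 genes with enough counts to be tested. RNA was sequenced from whole ear skin of B6 mice in 4 groups of 4 libraries, and the design text counts 4 mice in each group. HFD_PMA mice ate a high-fat diet for 8 weeks and then received PMA at 200 ng per ear, with ears taken 24 h later. ND_PMA mice received the same PMA on ND, which the labels set against the high-fat diet. HFD_cont mice had the high-fat diet and untreated ears, and ND_cont mice had ND and untreated ears. PMA belongs to the phorbol esters, which switch on protein kinase C, and it inflames skin. The sources used here do not say whether untreated ears received the solvent, nor the age or sex of the mice.

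Cells make cholesterol from acetyl-CoA through mevalonate to the isoprenoid farnesyl diphosphate, and then through squalene and lanosterol to cholesterol. When sterols in the endoplasmic reticulum are low, SCAP carries the SREBP transcription factors to the Golgi, where they are cut to active forms that raise the synthesis genes, whereas INSIG proteins hold the complex back when sterols are high. Excess cholesterol yields oxysterols that activate the LXR receptors, whose targets export cholesterol and, through the ubiquitin ligase encoded by Mylip, lower lipoprotein receptors. In skin, keratinocytes make cholesterol for the lipids of the barrier, and sebocytes make squalene and other lipids of sebum.

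Total counts were 7739487 to 15571389 per library, so that 1 CPM (a read count relative to the library total, as scaled by the TMM method) stood for about 8 to 15.6 reads. Members had between 38 and 11777 counts in a library. Summed basal keratinocyte markers lay between 15300 and 23780 CPM in all 16 libraries, which goes with skin but cannot tell ear from other skin. None of the 72 markers of 10 cell types was at 0 in every library, which at these depths checks little. The libraries also contained fibroblast, muscle, fat and leukocyte RNA, and in bulk RNA fewer cells of a type and less RNA per cell cannot be told apart. Hair shaft and inner root sheath markers were uneven, with 2789 CPM in HFD_PMA replicate 1, 2148 CPM in HFD_cont replicate 1 and 1492 CPM in HFD_cont replicate 2, against 9.03 to 517 CPM in the other 13. Sample codes began with RHS in all 4 ND_cont libraries and in HFD_cont replicate 1, and with RHP in the other 11. The sources used here do not explain these codes, and each group but HFD_cont carried a single prefix.

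Promoters are shown for the members on which the results turn, because SREBP and LXR act through short sequences near gene starts. RefSeq entries (GRCm38.p6) matched 26 of the 32 members, each as 250 bases before to 50 after a start site. Below are the 250 bases before the start, 5′ to 3′ on the gene's strand. Capitals mark the sterol response element TCACNCCAC and the NF-Y pentamer CCAAT, each searched on both strands, and the 2 did not overlap. Hmgcs1 is shown as the member with the sterol response element, on chr13:119690101-119690350, plus strand.
Hmgcs1: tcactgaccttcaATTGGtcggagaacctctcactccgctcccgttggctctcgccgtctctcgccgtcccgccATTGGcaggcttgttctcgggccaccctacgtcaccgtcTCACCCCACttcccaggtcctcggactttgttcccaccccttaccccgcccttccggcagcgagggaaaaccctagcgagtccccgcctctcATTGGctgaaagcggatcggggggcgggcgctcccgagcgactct
Mvk, Pmvk and Ebp are shown as the members called higher on the high-fat diet, on chr5:114444019-114444268 (plus), chr3:89454291-89454540 (plus) and chrX:8193513-8193762 (minus).
Mvk: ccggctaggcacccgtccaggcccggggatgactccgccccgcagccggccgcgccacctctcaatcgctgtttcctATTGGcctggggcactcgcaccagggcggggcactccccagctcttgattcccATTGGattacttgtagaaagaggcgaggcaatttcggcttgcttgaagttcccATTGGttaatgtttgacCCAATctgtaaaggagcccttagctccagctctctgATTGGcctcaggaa
Pmvk: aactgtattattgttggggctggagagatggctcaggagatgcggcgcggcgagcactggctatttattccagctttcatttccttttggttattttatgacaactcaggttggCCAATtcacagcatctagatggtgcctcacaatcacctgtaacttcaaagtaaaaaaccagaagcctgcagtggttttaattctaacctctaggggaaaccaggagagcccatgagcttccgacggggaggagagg
Ebp: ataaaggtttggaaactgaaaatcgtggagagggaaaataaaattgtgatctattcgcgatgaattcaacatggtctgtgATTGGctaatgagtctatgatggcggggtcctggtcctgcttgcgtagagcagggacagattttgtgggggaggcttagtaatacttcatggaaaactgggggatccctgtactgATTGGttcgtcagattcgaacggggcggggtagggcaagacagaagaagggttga
Abca1 and Mylip, both LXR targets, are shown as the members with the lowest adjusted p-values, called lower with PMA on ND, on chr4:53159896-53160145 (minus) and chr13:45389492-45389741 (plus).
Abca1: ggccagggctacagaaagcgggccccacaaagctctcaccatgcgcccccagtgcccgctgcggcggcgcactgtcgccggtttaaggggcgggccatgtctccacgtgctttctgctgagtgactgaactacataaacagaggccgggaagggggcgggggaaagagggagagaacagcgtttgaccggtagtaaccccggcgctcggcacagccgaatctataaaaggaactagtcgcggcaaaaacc
Mylip: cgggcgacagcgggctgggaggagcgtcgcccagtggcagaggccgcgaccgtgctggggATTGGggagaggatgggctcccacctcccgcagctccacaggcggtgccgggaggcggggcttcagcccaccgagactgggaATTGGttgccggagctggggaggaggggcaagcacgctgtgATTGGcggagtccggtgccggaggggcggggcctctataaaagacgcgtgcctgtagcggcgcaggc

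Over the whole 300-base windows, the sterol response element matched in 1 of 26 member genes (3.85%), against 1.44% of all 27025 genes with an entry. That match, in Hmgcs1, began 137 bases before the start. CCAAT was present in 21 of 26 member genes (80.8%), against 41.1% of all genes. Counted by window, the shares were 62.9% of 35 member windows and 37.4% of all 32851 windows. Mvk held 5 copies, Hmgcs1 4 including 1 past the start, Mylip 3, Ebp 2 and Pmvk 1. The Pmvk copy lay in the window shown above, and its other window, chr3:89459321-89459620, held none. The canonical LXR element, a direct repeat spaced by 4 bases, was in no member window and in 4 genes of all. Only this 16-letter form was searched, so sites with other letters were not counted and an LXR site is not excluded. These matches describe letters in these windows only.

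Levels between genes were compared as CPM per kilobase of the deposited gene length, averaged over 16 libraries. Hmgcs1, the synthase that makes the precursor of mevalonate, stood highest at 220 CPM per kilobase. Next came Fdft1 (squalene synthase) at 86.6, Msmo1 (a sterol demethylating oxidase) at 78.9, Cyp51 (lanosterol demethylase) at 69.7 and Sqle (squalene epoxidase) at 67.7 CPM per kilobase. Those 4 neighbours overlapped in their library ranges, whereas the lowest Hmgcs1 library, at 103 CPM per kilobase, lay within the range of Fdft1 and of Msmo1. The order depends on the length used. Fdft1 had a deposited length of 2860 bases against 4227 exon bases in GENCODE M21, whereas Msmo1, Cyp51 and Sqle had equal lengths in both. At the low end were Nr1h3 (LXR alpha) at 3.48, Tm7sf2 (a sterol reductase) at 4.96, Abca1 at 7.14, Npc1 at 7.2 and Fdps (farnesyl diphosphate synthase) at 8.09 CPM per kilobase. Fdps shares 26.7% of its exon bases with Gm43738, Fdft1 18.3% with Ctsb and Hmgcs1 12.1% with Gm48342. Some reads of these genes could be assigned either way. Nr1h2 (LXR beta) had 36.9 CPM per kilobase, and its range of 32.6 to 44.5 did not meet the 1.46 to 6.75 of Nr1h3. Of 2 enzymes that reduce the same sterol bond, Lbr had 21.7 and Tm7sf2 4.96 CPM per kilobase.

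**Figure D1:**
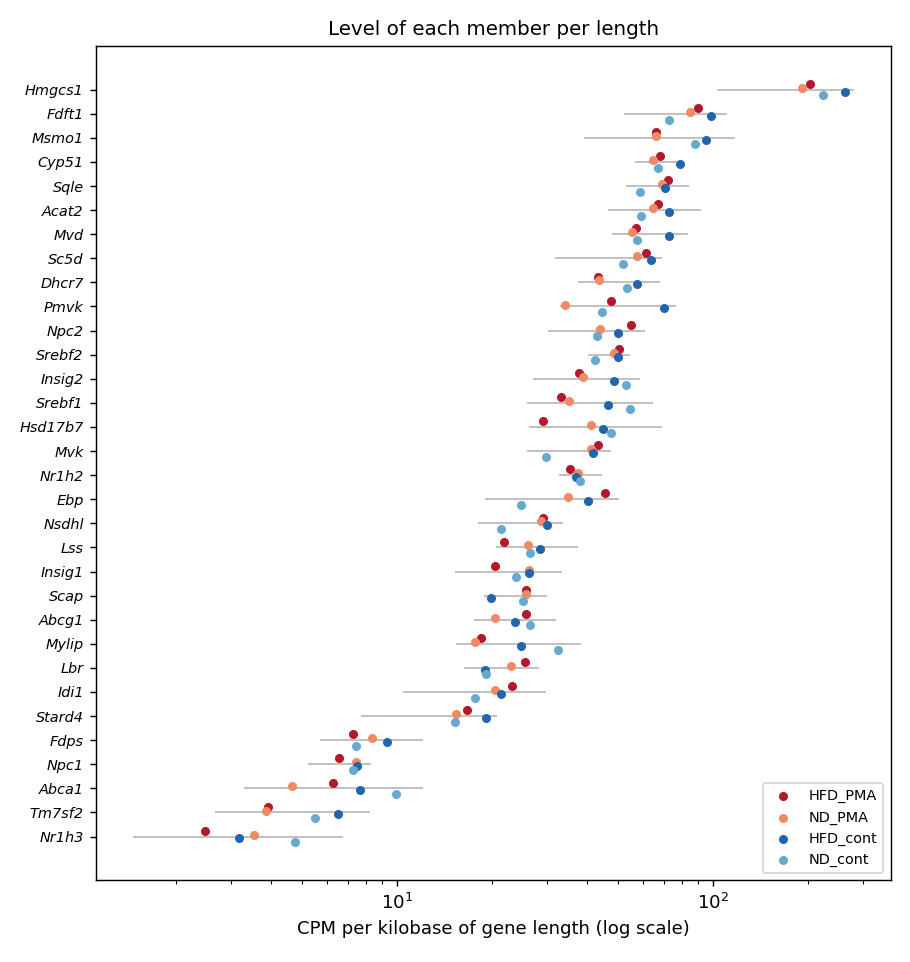
Level of each of the 32 members in CPM per kilobase of gene length (log axis), ordered from highest to lowest. Points are the means of the HFD_PMA, ND_PMA, HFD_cont and ND_cont groups and the grey line is the range over 16 libraries, with Hmgcs1 highest (mean 220) and Nr1h3 lowest (mean 3.48).

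In untreated skin, 3 synthesis enzymes were higher on the high-fat diet: the mevalonate kinases Mvk and Pmvk, which act in succession, and the sterol isomerase Ebp. These 3 of 32 members (9.38%) passed edgeR's quasi-likelihood test, with a Benjamini-Hochberg adjusted p below 0.05, where 3.93% of all 17604 genes were called, 2.87% higher and 1.06% lower. No member was called lower. At an unadjusted p below 0.05, 7 members were higher and 3 lower, against 9.38% and 7.16% of all genes. Most synthesis enzymes leaned the same way: 17 of 19 had log2 fold changes above 0, with a median of 0.28, against 47.6% and a median of -0.02 over all genes. The 19 estimates rest on the same libraries and are not independent. Adding up the 19 enzymes, HFD_cont skin had 4824, 4541, 4341 and 3999 CPM and ND_cont skin had 3703, 4309, 3511 and 3635 CPM, and the groups overlapped.

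Mvk (chr5:114444269-114460591, GRCm38), which phosphorylates mevalonate, had 120.4, 120.1, 106 and 101 CPM in HFD_cont skin, against 78.97, 85.7, 83.8 and 69.2 CPM in ND_cont skin. Every HFD_cont library lay above every ND_cont library, and the log2 fold change was 0.50 ± 0.11 (SE, adjusted p = 0.0148). Pmvk (chr3:89454541-89469013), which adds the next phosphate, had 111, 119, 131 and 121 CPM in HFD_cont skin, against 87.8, 94.6, 60.1 and 64.1 CPM in ND_cont skin. Again the groups did not overlap, although ND_cont replicates 1 and 2 sat well above replicates 3 and 4, and the log2 fold change was 0.65 ± 0.15 (adjusted p = 0.0149). Ebp (chrX:8185329-8193512), which moves a bond within the sterol ring, had 97.2, 97.1, 94.2 and 84.3 CPM in HFD_cont skin, against 70.1, 67.6, 43.95 and 46.4 CPM in ND_cont skin. The groups were apart and the same ND_cont replicates were the lowest, with a log2 fold change of 0.71 ± 0.15 (adjusted p = 0.0118).

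Cyp51, Sc5d and Stard4 also had no overlap between the diets in untreated skin but were not called. Cyp51 had 351, 354, 353 and 335 CPM in HFD_cont skin and 278, 331, 271 and 303 CPM in ND_cont skin (log2 fold change 0.23, adjusted p = 0.303). Sc5d, the desaturase late in the sterol route, had 149, 149.6, 146 and 150.3 CPM in HFD_cont skin and 119, 121, 132 and 114 CPM in ND_cont skin (0.29, adjusted p = 0.405). Stard4, a carrier that moves sterol between membranes, had 116, 105, 103 and 105 CPM in HFD_cont skin and 79.1, 84.5, 78.02 and 99.9 CPM in ND_cont skin (0.33, adjusted p = 0.432). In Cyp51 and Stard4 the lowest HFD_cont library lay only just above the highest ND_cont library, and in Sc5d the margin was wider. With Mvk, Pmvk and Ebp, 6 of 32 members (18.8%) lay wholly above, against 7.17% of all genes, and Nr1h3 (3.12%) lay wholly below, against 5.46%. The other synthesis enzymes ranged from -0.08 for Hsd17b7 to 0.48 for Nsdhl on the log2 scale, with adjusted p-values of 0.0755 for Nsdhl and 0.113 for Fdft1 at the near end.

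No regulator was called with diet in untreated skin, and their estimates lay on both sides of 0. Srebf2, which encodes the SREBP most tied to cholesterol genes, had a log2 fold change of 0.24 ± 0.10 (adjusted p = 0.221), whereas Srebf1, most tied to fatty acid genes, had -0.23 ± 0.14 (adjusted p = 0.417). Scap, the escort of both, had -0.33 ± 0.13 (adjusted p = 0.174), and the retention factors Insig1 and Insig2 had 0.14 and -0.13. Among LXR genes and targets all estimates were below 0: Abca1 had -0.39 (adjusted p = 0.264), Mylip -0.39 (0.133) and Abcg1 -0.17 (0.657). Nr1h3 had 6.54, 9.41, 8.49 and 7.37 CPM in HFD_cont skin and 10.97, 10.01, 16.99 and 9.86 CPM in ND_cont skin, without overlap (-0.58 ± 0.33, adjusted p = 0.397). The lysosomal exporters Npc1 and Npc2 had 0.04 and 0.22.

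The number of enzymes raised differed among the HFD_cont libraries. In HFD_cont replicates 1, 2, 3 and 4, 15, 12, 9 and 6 of the 19 enzymes lay above every ND_cont library. Replicate 1, the library with the same code prefix as ND_cont, had 120.4 CPM of Mvk, 111 CPM of Pmvk and 97.2 CPM of Ebp, above the highest ND_cont values of 85.7, 94.6 and 70.1 CPM. With the prefix as a term, Mvk had 0.60 ± 0.17 (adjusted p = 0.116), Pmvk 0.53 ± 0.23 (0.372) and Ebp 0.77 ± 0.24 (0.157). No member was called in that fit, where the log2 fold changes stood beside 0.50, 0.65 and 0.71 without the term. Within the RHS libraries, HFD_cont replicate 1 against the 4 ND_cont libraries, the log2 fold changes were 0.62, 0.55 and 0.79. With 1 library on the high-fat side, whether these pass the threshold says little. All 3 calls were also lost without ND_cont replicate 4 (adjusted p = 0.0573 for Mvk, 0.063 for Pmvk and 0.0513 for Ebp), Mvk without HFD_cont replicate 2 (0.0525) and Pmvk without ND_cont replicate 3 (0.0566). Cell type markers moved with the diet as well. Suprabasal keratinocyte markers summed to 10710 to 13720 CPM in HFD_cont and 7200 to 7677 CPM in ND_cont skin, with 4 of 7 called higher. Fibroblast markers summed to 5569 to 6579 CPM in HFD_cont and 8620 to 10970 CPM in ND_cont skin, with 4 of 6 called lower. Sebocyte markers overlapped, with 2113 to 3011 CPM in HFD_cont and 2058 to 3425 CPM in ND_cont skin and 1 of 10 called, lower. Hair markers were 68.8 to 2148 CPM in HFD_cont and 14.3 to 56.7 CPM in ND_cont skin, with 1 of 10 called, higher, and without the 3 libraries highest in them the estimates were 0.40 for Mvk (adjusted p = 0.231), 0.73 for Pmvk (0.0752) and 0.66 for Ebp (0.116). The part of the cell markers in these differences was not tested.

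**Figure D2:**
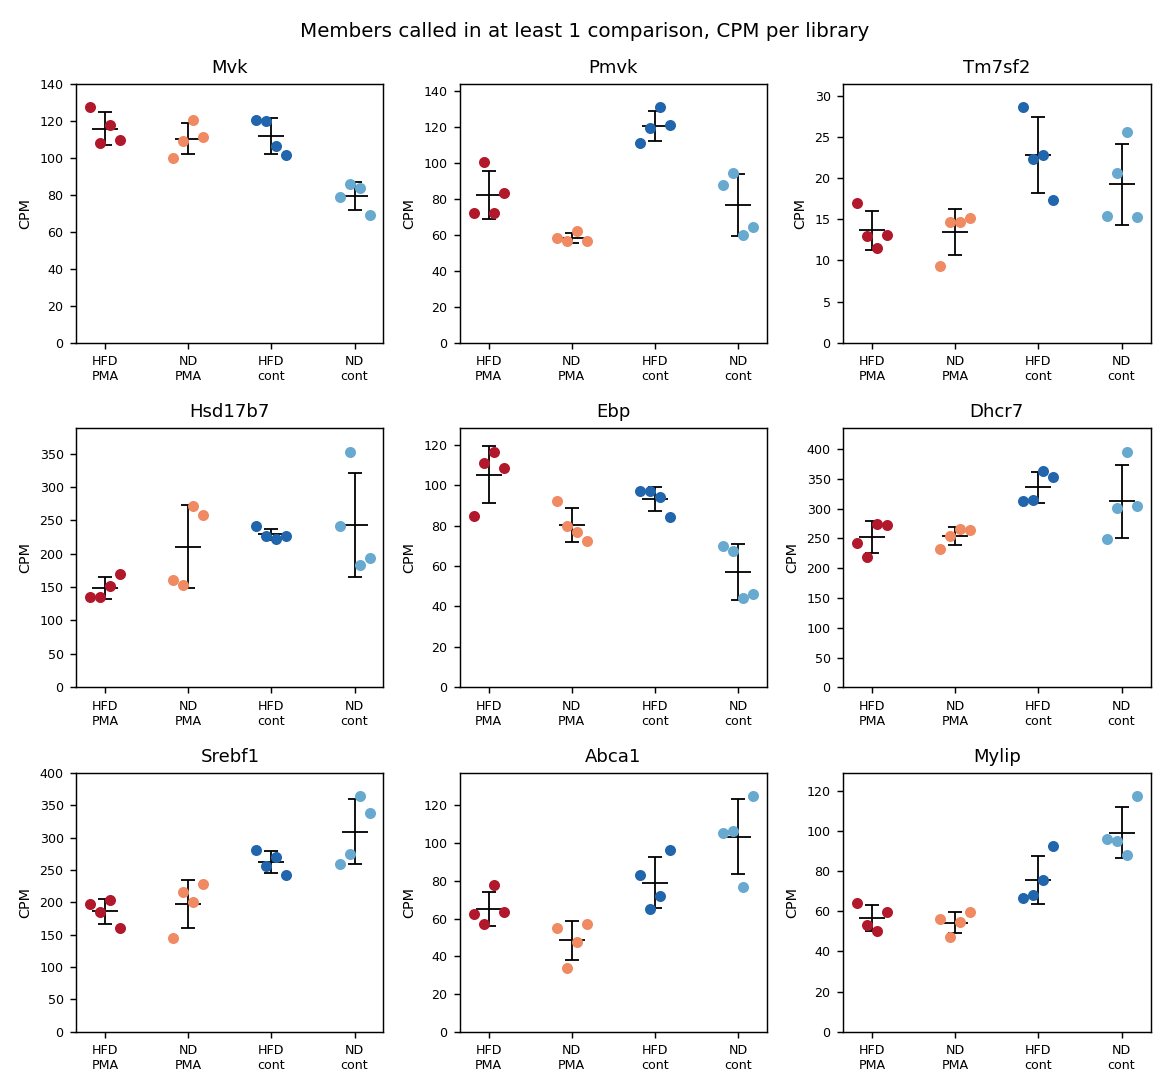
CPM of the 9 members called in at least 1 comparison, with 1 point per library and the group mean and SD as bars, in HFD_PMA, ND_PMA, HFD_cont and ND_cont skin. Mvk is lowest in ND_cont, Pmvk is highest in HFD_cont, and the means of Abca1 and Mylip are highest in ND_cont.

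In PMA-treated skin, 0 of 32 members were called between the diets by edgeR, against 2.2% of all genes (0.943% higher and 1.26% lower), and DESeq2 called 1, Pmvk. At an unadjusted p below 0.05, 4 members were higher and 1 lower, together 15.6%, against 15.5% of all genes (6.69% higher and 8.8% lower). Pmvk had 72.1, 100.2, 72.1 and 83.4 CPM in HFD_PMA skin, against 57.97, 56.5, 62.1 and 56.7 CPM in ND_PMA skin. It was the only member without overlap (3.12%, against 3.91% of all genes wholly above and 4.71% wholly below), with a log2 fold change of 0.49 ± 0.15 (adjusted p = 0.0865). Ebp had 84.6, 111, 117 and 109 CPM in HFD_PMA skin and 92.3, 79.97, 76.8 and 72.5 CPM in ND_PMA skin, with 1 overlapping library in HFD_PMA (0.39 ± 0.15, adjusted p = 0.201). Mvk had 127, 108, 118 and 109.9 CPM in HFD_PMA skin and 100.2, 109, 120.4 and 112 CPM in ND_PMA skin, and its log2 fold change was 0.07, with a 95% interval of -0.17 to 0.31. Hsd17b7, a ketosteroid reductase of the sterol route, had the lowest synthesis estimate at -0.51 ± 0.19 (adjusted p = 0.19). The 19 enzymes had a median of 0.06, against -0.03 over all genes, and their sum was 3865, 3704, 3560 and 3684 CPM in HFD_PMA and 3398, 2844, 3994 and 4334 CPM in ND_PMA skin. Abca1 (0.43, adjusted p = 0.232) and Abcg1 (0.32, adjusted p = 0.32) were above 0, Nr1h3 had -0.52 (0.505), and Mylip had 0.06 (0.887).

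**Figure D3:**
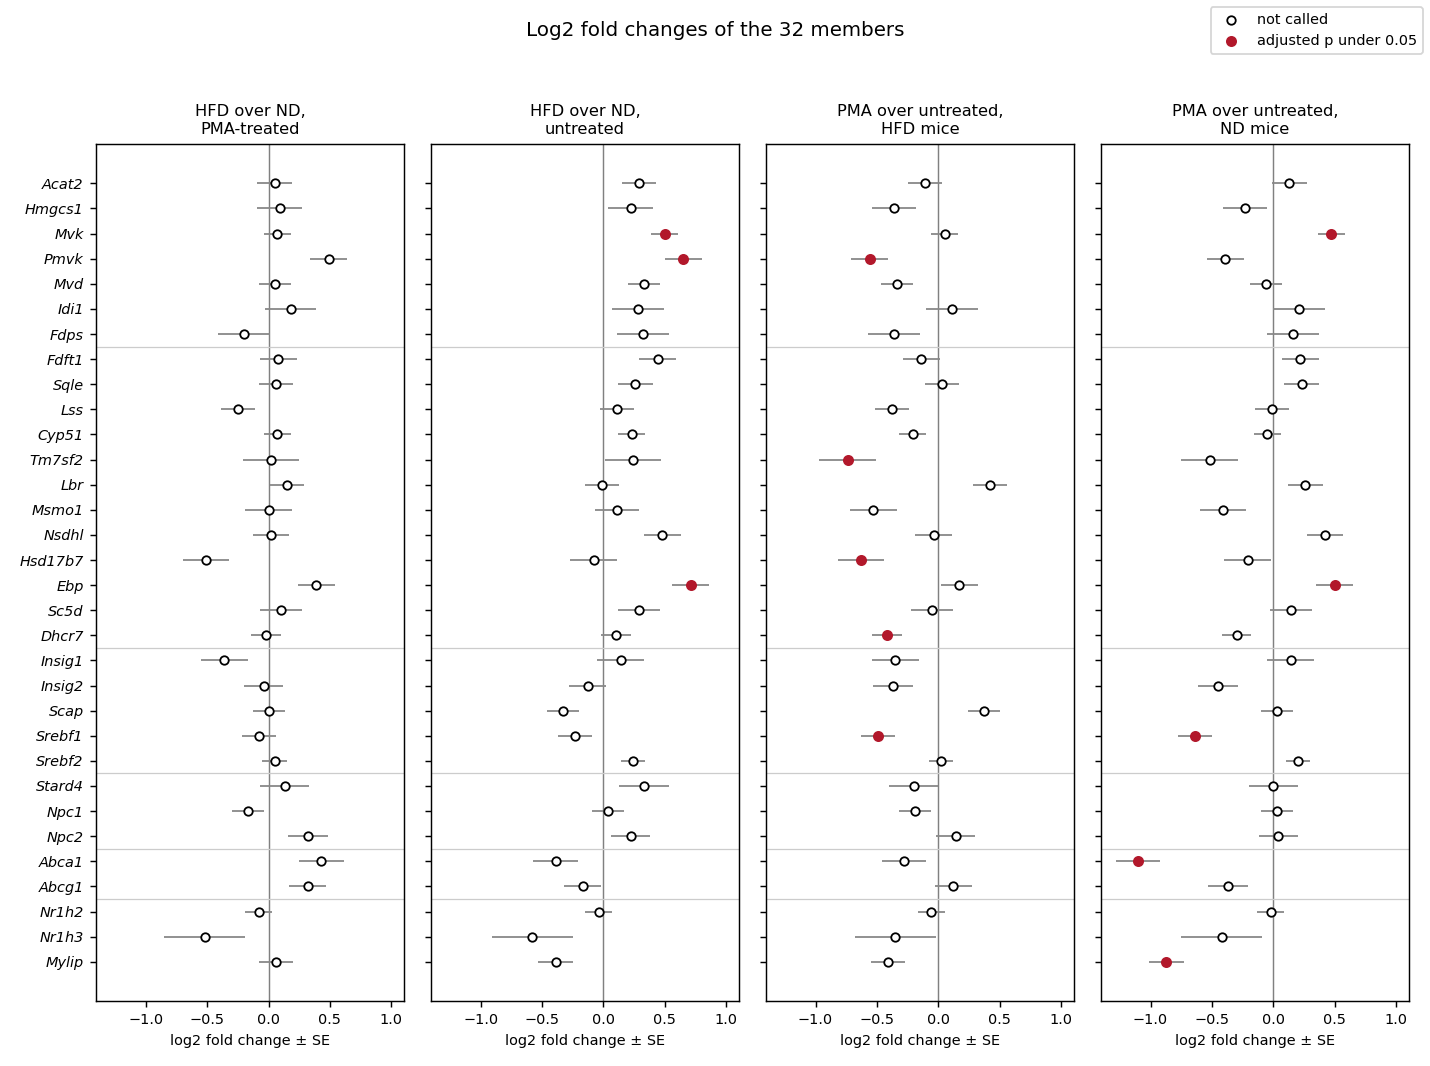
Log2 fold change of each member with its SE as a bar, for the diet comparisons (HFD over ND) in PMA-treated and untreated skin and the PMA comparisons (PMA over untreated) on HFD and on ND, with filled points for adjusted p below 0.05. With diet in untreated skin 17 of 19 enzymes lie to the right of 0 (median 0.28), and with PMA on HFD 14 of 19 lie to the left (median -0.21).

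With PMA on the high-fat diet, 5 members fell and none rose: the enzymes Pmvk, Tm7sf2, Hsd17b7 and Dhcr7, and the regulator Srebf1. These 5 of 32 (15.6%) stand beside 11.9% of all genes called, 7.34% higher and 4.6% lower. At an unadjusted p below 0.05, 2 members were higher and 10 lower, against 13.3% and 10.8% of all genes. Of the 19 enzymes, 14 had estimates below 0 and 5 above, with a median of -0.21, against -0.02 over all genes. The diet comparison in untreated skin uses the same HFD_cont libraries. The fall of Pmvk and this lean are therefore not independent of the rise of Pmvk and the opposite lean there. In HFD_PMA skin 9 members lay wholly below and 2 wholly above, 28.1% and 6.25%, against 7.93% and 10.8% of all genes.

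Pmvk had 72.1, 100.2, 72.1 and 83.4 CPM in HFD_PMA skin, against 111, 119, 131 and 121 CPM in HFD_cont skin (-0.56 ± 0.15, adjusted p = 0.0158). Tm7sf2 (chr19:6062821-6068373), a reductase of the sterol ring, had 17.01, 13.02, 11.49 and 13.1 CPM in HFD_PMA skin, against 28.6, 22.3, 22.8 and 17.3 CPM in HFD_cont skin (-0.74 ± 0.23, adjusted p = 0.044). Tm7sf2 shares 12.1% of its exon bases with Vps51 on the same strand, so some of its reads could be assigned either way. Hsd17b7 (chr1:169949535-169969241) had 136, 134, 152 and 169.8 CPM in HFD_PMA skin, against 241, 227, 223 and 227 CPM in HFD_cont skin (-0.63 ± 0.19, adjusted p = 0.0383). Dhcr7 (chr7:143823145-143848410), which reduces the provitamin D sterol to cholesterol, had 242, 219, 275 and 272 CPM in HFD_PMA skin, against 312, 315, 364 and 352 CPM in HFD_cont skin (-0.42 ± 0.12, adjusted p = 0.0329). In each of these 4 enzymes all HFD_PMA libraries lay below all HFD_cont libraries, by the narrowest margin in Tm7sf2. Srebf1 (chr11:60199089-60222581) had 197, 185, 203 and 159.6 CPM in HFD_PMA skin, against 282, 256, 270.2 and 243 CPM in HFD_cont skin (-0.49 ± 0.14, adjusted p = 0.0228). Its groups did not overlap either, and 3.1% of its exon bases are shared with Rai1 and a microRNA gene.

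Other members stood apart between HFD_PMA and HFD_cont skin without being called. Hmgcs1 had 709, 639.6, 625 and 656 CPM in HFD_PMA skin and 905, 909, 829 and 739 CPM in HFD_cont skin (-0.36, adjusted p = 0.231). Mvd, which decarboxylates the product of Pmvk, had 103, 97.5, 98.5 and 105 CPM in HFD_PMA skin and 147, 129.8, 119 and 115 CPM in HFD_cont skin (-0.34, adjusted p = 0.106). Msmo1 had 375, 372, 400.4 and 474 CPM in HFD_PMA skin and 631, 599, 586 and 525 CPM in HFD_cont skin (-0.53, adjusted p = 0.0687). All 3 were lower in each HFD_PMA library. Lbr, the lamin B receptor that also reduces the sterol bond Tm7sf2 acts on, had 119.6, 129, 106 and 131 CPM in HFD_PMA skin and 93.2, 92.8, 85.1 and 91.5 CPM in HFD_cont skin (0.42 ± 0.14, adjusted p = 0.0508). Scap had 218, 211, 173 and 161 CPM in HFD_PMA skin and 159, 141, 151 and 141 CPM in HFD_cont skin (0.37 ± 0.13, adjusted p = 0.0717). Lbr and Scap were the 2 members wholly above. Mvk, Idi1 (isopentenyl isomerase), Sqle and Ebp had small positive estimates of 0.05, 0.11, 0.03 and 0.17. Mylip had 64.3, 53.1, 49.9 and 59.7 CPM in HFD_PMA skin and 66.3, 67.9, 75.6 and 92.6 CPM in HFD_cont skin (-0.41 ± 0.14, adjusted p = 0.057), Abca1 had -0.28 (0.368) and Abcg1 0.12 (0.704).

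Several of these calls lay close to the threshold, and leaving out any of several libraries ended them while the fold changes kept their direction. With each of the 16 libraries left out in turn, the log2 fold change was -0.69 to -0.50 for Pmvk, -0.86 to -0.61 for Tm7sf2, -0.72 to -0.59 for Hsd17b7, -0.47 to -0.37 for Dhcr7 and -0.55 to -0.44 for Srebf1. Without HFD_PMA replicate 2, 1 member was called, with adjusted p-values of 0.108 for Tm7sf2, 0.0936 for Hsd17b7, 0.114 for Dhcr7 and 0.0577 for Srebf1. Without HFD_cont replicate 3 the count was also 1 (0.0878, 0.0587, 0.0948 and 0.0579 for the same genes), and without HFD_PMA replicate 1, HFD_PMA replicate 3 or HFD_cont replicate 1 it was 3. The Pmvk call was lost without HFD_PMA replicate 1 (0.0557) and HFD_PMA replicate 3 (0.0517), the Dhcr7 call also without HFD_PMA replicate 1 (0.0826) and HFD_cont replicate 4 (0.0805), and the Srebf1 call also without HFD_PMA replicate 4 (0.064) and HFD_cont replicate 1 (0.06). Over the 16 libraries left out in turn, Tm7sf2 lost its call 9 times (adjusted p up to 0.136) and Hsd17b7 7 times (up to 0.0956). Without ND_PMA replicate 2, which enters through the shared spread, 9 were called. Without the 3 libraries highest in hair markers, 1 member, Mylip, was called. Within these groups, only HFD_cont replicate 1 carried the RHS prefix. With the prefix as a term, the calls of Tm7sf2, Hsd17b7 and Srebf1 were lost, and those of Pmvk and Dhcr7 were kept. Sebocyte markers summed to 1131, 1286, 1579 and 1828 CPM in HFD_PMA and 3011, 2480, 2482 and 2113 CPM in HFD_cont skin, without overlap and with 2 of 10 called lower. Basal keratinocyte markers summed to 20050 to 23780 CPM in HFD_PMA and 17710 to 18060 CPM in HFD_cont skin (1 of 6 called higher and 2 lower), and adipocyte markers to 146 to 215 CPM in HFD_PMA and 261 to 436 CPM in HFD_cont skin (4 of 7 called lower). Suprabasal keratinocyte markers summed to 8676 to 11130 CPM in HFD_PMA and 10710 to 13720 CPM in HFD_cont skin (3 of 7 called lower), and skeletal muscle markers to 2609 to 3388 CPM in HFD_PMA and 2437 to 5839 CPM in HFD_cont skin (3 of 7 called lower). Neutrophil markers summed to 291 to 1213 CPM in HFD_PMA and 21.4 to 60.3 CPM in HFD_cont skin, with all 6 tested called higher. The part of these markers in the member values was not tested.

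**Figure D4:**
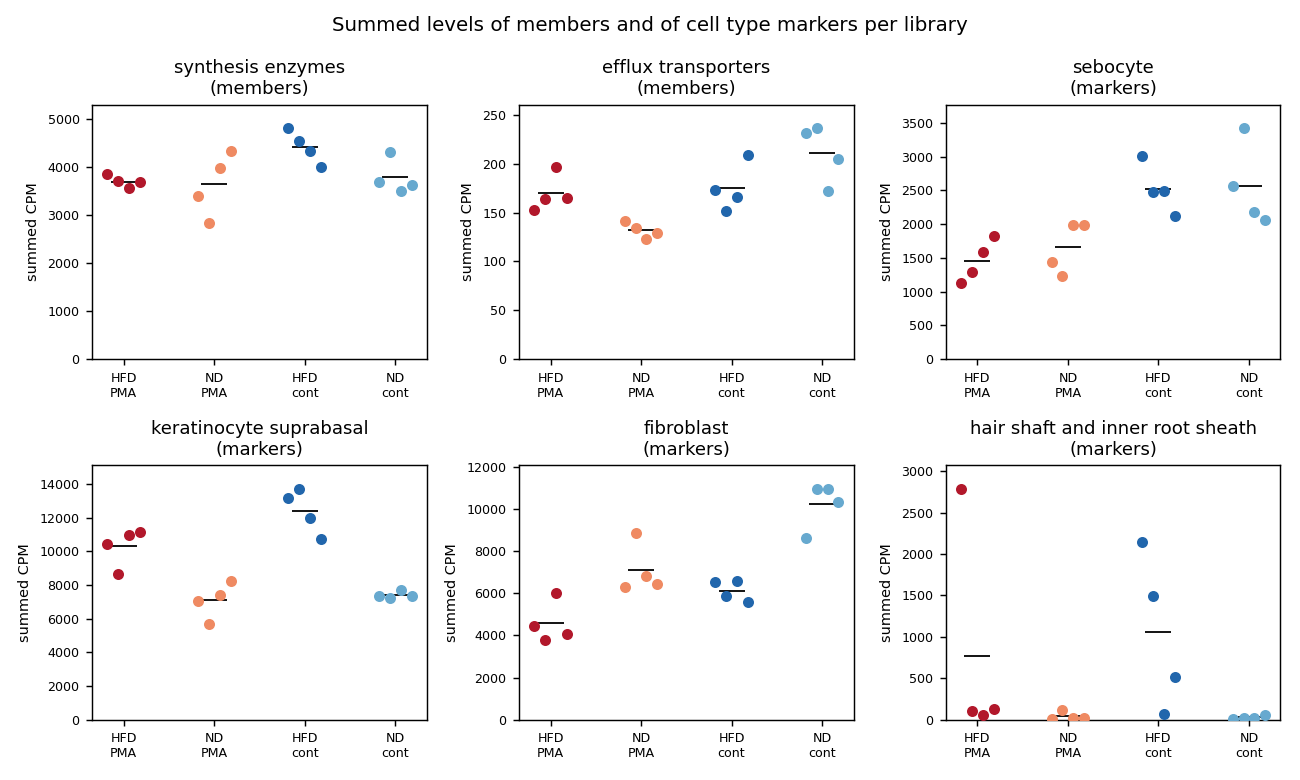
Summed CPM per library of the synthesis enzymes and efflux transporters and of sebocyte, suprabasal keratinocyte, fibroblast, and hair shaft and inner root sheath markers in HFD_PMA, ND_PMA, HFD_cont and ND_cont skin. Lines are group means, and sebocyte markers sit between 1131 and 1987 CPM in PMA-treated skin and between 2058 and 3425 CPM in untreated skin.

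With PMA on ND, the LXR targets Abca1 and Mylip and the regulator Srebf1 fell, and the enzymes Mvk and Ebp rose. These 5 of 32 members (15.6%) stand beside 12.9% of all genes called, 8.96% higher and 3.99% lower. At an unadjusted p below 0.05, 3 members were higher and 9 lower, against 25.4% of all genes (15.6% higher and 9.89% lower). Abca1 (chr4:53030787-53159895), which exports cholesterol to lipid-poor apolipoprotein, had 54.8, 33.98, 47.8 and 57.3 CPM in ND_PMA skin, against 106, 107, 76.9 and 125 CPM in ND_cont skin. All ND_PMA libraries were lower than all ND_cont libraries, and at -1.10 ± 0.18 on the log2 scale it was the furthest from 0 of any member in any comparison (adjusted p = 0.000277). Mylip (chr13:45389742-45412022), the ligase that marks lipoprotein receptors for degradation, had 56.3, 47.3, 54.4 and 59.4 CPM in ND_PMA skin, against 96.1, 94.8, 87.7 and 117 CPM in ND_cont skin. It was likewise lower without overlap, with a log2 fold change of -0.87 ± 0.14 (adjusted p = 0.000248). Srebf1, itself a known LXR target, had 146, 217, 199.8 and 229 CPM in ND_PMA skin, against 259, 275, 364 and 338 CPM in ND_cont skin, also without overlap (-0.64 ± 0.14, adjusted p = 0.0033).

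Abcg1, the exporter to mature lipoproteins, had 86.8, 100.01, 75.5 and 71.5 CPM in ND_PMA skin and 126, 130.3, 95.1 and 80.2 CPM in ND_cont skin. Its groups overlapped (-0.37 ± 0.16, adjusted p = 0.134). The receptors themselves were not called: Nr1h2 had -0.02 (adjusted p = 0.922), with a 95% interval of -0.26 to 0.21, and Nr1h3 had -0.42 (0.479), with an interval of -1.14 to 0.30. Insig2 had 139, 94.1, 154 and 152 CPM in ND_PMA skin and 194, 204, 169 and 170.4 CPM in ND_cont skin, wholly below and not called (-0.45 ± 0.16, adjusted p = 0.0605).

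Mvk had 100.2, 109, 120.4 and 112 CPM in ND_PMA skin, against 78.97, 85.7, 83.8 and 69.2 CPM in ND_cont skin, without overlap (0.47 ± 0.11, adjusted p = 0.00645). Ebp had 92.3, 79.97, 76.8 and 72.5 CPM in ND_PMA skin, against 70.1, 67.6, 43.95 and 46.4 CPM in ND_cont skin, again without overlap (0.50 ± 0.15, adjusted p = 0.0368). Their comparison with HFD_cont above uses the same ND_cont libraries. Tm7sf2 had 9.28, 14.7, 14.6 and 15.2 CPM in ND_PMA skin and 15.4, 20.7, 25.6 and 15.2 CPM in ND_cont skin, and lay wholly below by a narrow margin (-0.52 ± 0.23, adjusted p = 0.165). Pmvk had -0.39 (adjusted p = 0.0879), Msmo1 -0.41 (0.162), Dhcr7 -0.30 (0.134) and Nsdhl, a sterol dehydrogenase, 0.42 (0.0634). The 19 enzymes divided into 10 above 0 and 9 below, with a median of 0.13, against 0 over all genes. Of the 32 members, 5 (15.6%) lay wholly below, against 6.24% of all genes, and 2 (6.25%) wholly above, against 10.6%.

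All ND_cont libraries carried the RHS prefix and all ND_PMA libraries the RHP prefix, so on ND the prefix and PMA cannot be told apart from these groups alone. A fit with the prefix as a term rests on HFD_cont replicate 1. It gave -1.11 ± 0.27 for Mylip (adjusted p = 0.0356), -1 ± 0.36 for Abca1 (0.168), -0.51 for Srebf1 (0.419), 0.61 for Mvk (0.152) and 0.58 for Ebp (0.389). Mylip kept its call under every alternative run, and Abca1 and Srebf1 under every alternative but that one. The Ebp call was lost without 12 of the 16 libraries in turn, with an adjusted p of 0.164 without ND_cont replicate 3 at most. RLE or upper-quartile scaling, leaving out the low-count filter, and the compared groups alone also ended the Ebp call. So did leaving out mitochondrial genes or the 3 libraries highest in hair markers. Over the 10 other settings, prefix included, the Ebp log2 fold change was 0.43 to 0.58. Sebocyte markers summed to 1227 to 1987 CPM in ND_PMA and 2058 to 3425 CPM in ND_cont skin, with 4 of 10 called lower. Adipocyte markers summed to 207 to 379 CPM in ND_PMA and 427 to 612 CPM in ND_cont skin, with 5 of 7 called lower. Neutrophil markers summed to 85.3 to 257 CPM in ND_PMA and 9.54 to 22.5 CPM in ND_cont skin, with 4 of 6 tested called higher, and basal keratinocyte markers to 18650 to 21620 CPM in ND_PMA and 15300 to 19170 CPM in ND_cont skin, with 2 of 6 called higher and 2 lower. Macrophage markers summed to 572 to 915 CPM in ND_PMA and 447 to 557 CPM in ND_cont skin, with 3 of 7 called higher, and fibroblast markers to 6302 to 8869 CPM in ND_PMA and 8620 to 10970 CPM in ND_cont skin, with 2 of 6 called lower. The part of these markers in the fall of Abca1, Mylip and Srebf1 and in the rise of Mvk and Ebp was not tested.

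Over the 4 comparisons, 9 members were called at least once and 23 never. Of the 23, 13 also overlapped between the groups in every comparison, and their log2 fold changes lay between -0.38 (Lss, lanosterol synthase, PMA on HFD) and 0.48 (Nsdhl, diet in untreated skin). Over all 16 libraries the enzymes among them had 119 to 234 CPM (Acat2, a thiolase), 36.9 to 105 CPM (Idi1), 24.2 to 50.8 CPM (Fdps), 150 to 317 CPM (Fdft1), 294 to 467 CPM (Sqle), 223 to 404 CPM (Lss) and 51.8 to 96 CPM (Nsdhl). The regulators Insig1 and Srebf2 had 47.2 to 103 and 202 to 273 CPM. Npc1 and Npc2, which hand cholesterol out of lysosomes, had 56 to 88.9 and 98.1 to 199 CPM, Abcg1 had 71.5 to 130 CPM, and Nr1h2 had 109 to 149 CPM. Nr1h2 was the steadiest of the LXR genes, with log2 fold changes of -0.08 to -0.02 in the 4 comparisons.

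The difference between the PMA effects, on HFD minus on ND, was tested as an interaction. No member was called by edgeR, and 0.00568% of all genes, 1 gene, was. DESeq2 also called 0 members, and at an unadjusted p below 0.05 there were 3 members above 0 and 2 below, against 1.77% and 2.86% of all genes. Abca1 had the interaction furthest from 0 at 0.82 ± 0.25 (95% interval 0.27 to 1.36, unadjusted p = 0.00375, adjusted p = 0.74). Its PMA effect was -0.28 on HFD and -1.10 on ND. Abcg1 had 0.49 ± 0.22 (unadjusted p = 0.036) and Mylip 0.45 ± 0.20 (unadjusted p = 0.0317), both with an adjusted p of 0.999. In the other direction stood Mvk at -0.43 ± 0.16 (unadjusted p = 0.0131, adjusted p = 0.932) and Nsdhl at -0.46 ± 0.21 (unadjusted p = 0.0376, adjusted p = 0.999). Of the 19 enzymes 18 had an interaction below 0, with a median of -0.22, against 44.9% of all genes above 0 and a median of -0.04. All ND_cont libraries and HFD_cont replicate 1 carried the RHS prefix and the others RHP, so the prefix enters every interaction estimate. The 19 estimates also rest on the same libraries. The part of the prefix in this shared lean was not tested. At these spreads no difference in PMA response between the diets was detectable for a single member after adjustment.

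Spread among mice differed between groups. The median coefficient of variation over the 32 members was 11.3% in HFD_PMA, 17.7% in ND_PMA, 9.74% in HFD_cont and 16.8% in ND_cont skin. In ND_PMA replicate 2, 11 of 19 enzymes were the lowest of their group and none the highest. That library had 332 CPM of Hmgcs1, 36.9 CPM of Idi1, 241 CPM of Msmo1, 73.9 CPM of Sc5d and 43.2 CPM of Stard4. The other 3 ND_PMA libraries had 599 to 839 CPM of Hmgcs1, 74.4 to 91.4 of Idi1, 415 to 507 of Msmo1, 145 to 161 of Sc5d and 87.6 to 115 of Stard4. In HFD_cont replicate 1, 13 of 19 enzymes were the highest of their group, and in HFD_cont replicate 4, 13 of 19 were the lowest.

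**Figure D5:**
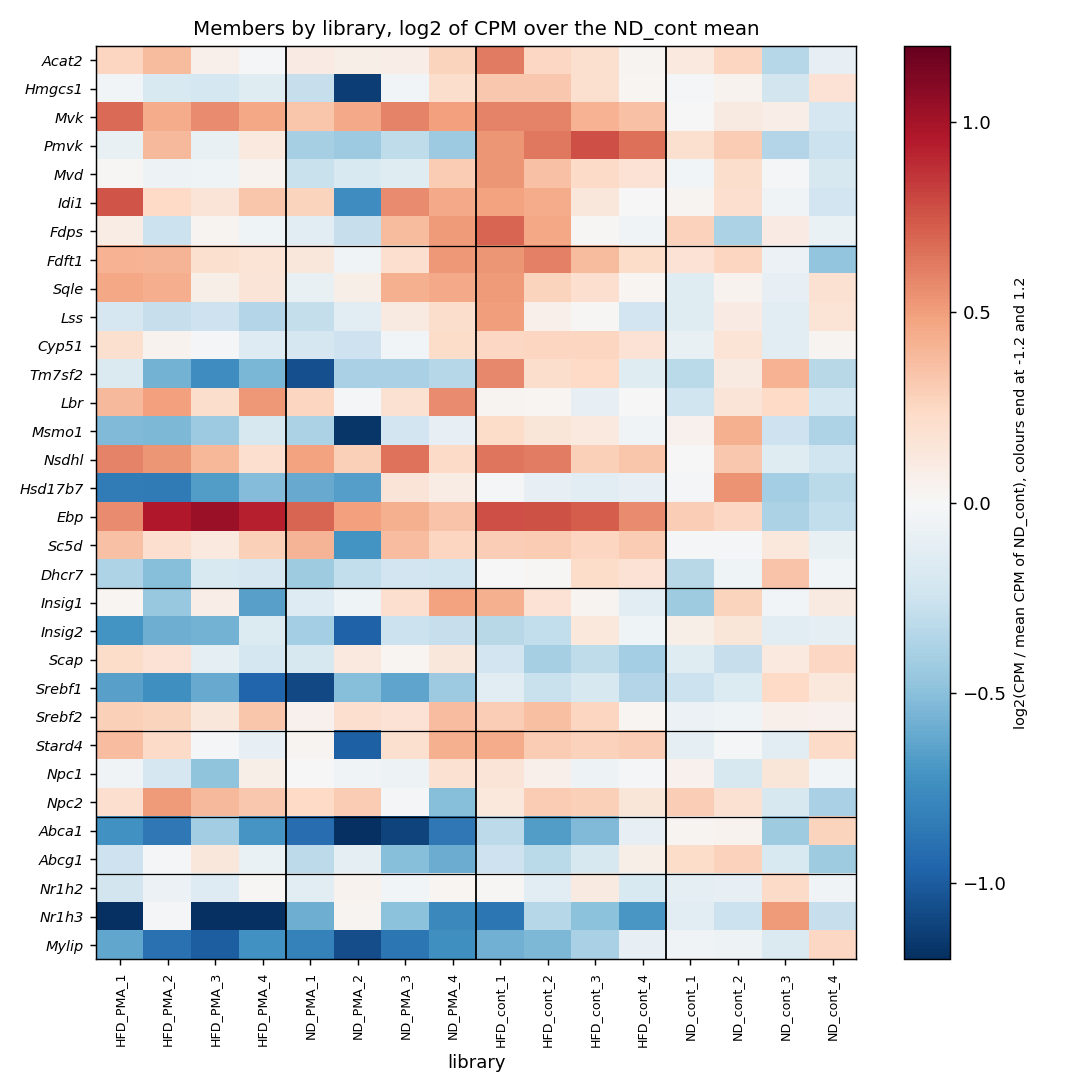
Each member in each library (columns, by group) as log2 of its CPM over the mean CPM of ND_cont, in colour, with colours ending at -1.2 and 1.2. Mvk and Ebp are red in every HFD_PMA, ND_PMA and HFD_cont library, and ND_PMA replicate 2 is dark blue in Hmgcs1 (332 CPM) and Msmo1 (241 CPM).

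Beyond the 32 members, 53 genes of neighbouring steps were tested. Their calls were not followed under the alternative settings, the code prefix as a term among them. In untreated skin 3 were called higher on the high-fat diet and 1 lower, together 7.55%, against 3.93% of all genes. Sult2b1, the sulfotransferase that makes cholesterol sulfate in the epidermis, averaged 70.6 ± 8.65 CPM in HFD_cont and 30.2 ± 9.76 CPM in ND_cont skin (SD, n = 4 each; log2 fold change 1.23 ± 0.19, edgeR adjusted p = 0.000767). Tmem97, a binding partner of the lysosomal cholesterol exporter, had 0.63 (adjusted p = 0.0435). Its groups overlapped, with 51.4 CPM in HFD_cont replicate 4 and 51.6 CPM in ND_cont replicate 2. Rabggtb, a subunit of the enzyme that adds geranylgeranyl groups to Rab proteins, had 0.51 (0.0388). The lipoprotein receptor Lrp1 had -0.53 (0.0237). In PMA-treated skin Sult2b1 was again higher, at 90.4 ± 9.31 CPM in HFD_PMA and 53.4 ± 5.81 CPM in ND_PMA skin (0.76, adjusted p = 0.0335). Sult2b1 is made by differentiating keratinocytes, whose markers moved with the diet in untreated skin as given above. In PMA-treated skin suprabasal markers summed to 8676 to 11130 CPM in HFD_PMA and 5701 to 8249 CPM in ND_PMA skin, with 2 of 7 called higher. The part of these markers in the Sult2b1 values was not tested.

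With PMA on the high-fat diet, 3 of the 53 rose and 10 fell, 5.66% and 18.9%, against 7.34% and 4.6% of all genes. With PMA on ND, 7 rose and 8 fell, 13.2% and 15.1%, against 8.96% and 3.99% of all genes. On ND the code prefix and PMA cannot be told apart for these genes either. The oxysterol hydroxylase Cyp7b1 rose, with 22.4 ± 3.97 CPM in HFD_PMA, against 5.06 ± 1.01 CPM in HFD_cont skin (2.15, adjusted p = 0.000659), and 14.9 ± 3.48 CPM in ND_PMA, against 3.84 ± 2.27 CPM in ND_cont skin (1.95, adjusted p = 0.00126). Cyp27a1, which makes an oxysterol that activates LXR, fell by 0.78 on the log2 scale on HFD (adjusted p = 0.0311) and by 0.86 on ND (0.0151). Among uptake receptors, the macrophage scavenger receptor Msr1 rose by 1.09 on HFD (adjusted p = 0.0469) and 2.06 on ND (0.000532). Vldlr fell by 0.68 (0.0211) on HFD and 0.82 (0.00551) on ND, and Cd36 fell by 0.72 (0.00986) on HFD and 0.65 (0.0166) on ND. Of 7 LXR targets and lipid export genes, 3 fell on each diet. The desaturase Scd1 averaged 2050 ± 399 CPM in HFD_PMA and 4621 ± 504 CPM in HFD_cont skin (-1.17, adjusted p = 9.9e-05), and 2967 ± 619 CPM in ND_PMA and 6369 ± 1094 CPM in ND_cont skin (-1.10, adjusted p = 0.00011). Abca5 had -1.11 on HFD (0.00262) and -1.25 on ND (0.000728), and the fatty acid synthase Fasn had -0.56 (0.00873) on HFD and -0.44 (0.035) on ND. Scd1 and Fasn are abundant in sebaceous glands and fat, whose markers were lower in PMA-treated skin as given above, and their part was not tested.

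Further calls concerned other steps. With PMA on the high-fat diet, the esterifying enzyme Soat1 was lower (-0.70, edgeR adjusted p = 0.00708). So were the sterol carriers Osbpl6 (-1.15, 0.0192), Gramd1c (-0.64, 0.0333) and Osbpl1a (-0.63, 0.00157). On ND, Pdss1, which makes the isoprenoid tail of coenzyme Q, was higher with PMA (1.15, edgeR adjusted p = 0.00257). Also higher were Osbpl8 (0.72, 0.0207, groups overlapping), Tmem97 (0.66, 0.0138), Sult2b1 (0.82, 0.00534) and Vcp, an extraction ATPase (0.31, 0.0499). Osbpl5 (-0.52, 0.027) and Osbpl1a (-0.40, 0.0318) fell on ND. A further scavenger receptor called higher with PMA on HFD is not named because it averaged under 5 CPM. None of the 53 had a called interaction, by edgeR.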

How the data were processed

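Whole ear skin of mice was profiled by RNA-seq from total RNA extracted with TRIzol and a column clean-up. Libraries followed a SMART-Seq protocol with Nextera XT, which keeps neither strand nor molecular identifiers, per the labels' protocols. The authors deposited raw counts per gene, and STAR 2.3, featureCounts 1.5, GRCm38 and mm10 are named in the submitters' processing notes. The sources used here name no annotation release or strand setting. Without strand, reads of overlapping genes cannot be told apart, and 12 of the 32 members share exon bases with another gene, for 7 only with genes of the other strand.

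The deposited counts of 16 libraries were fitted together with edgeR 4.0.16 (R 4.3.3, limma 3.58.1): TMM scaling, filterByExpr with at least 10 counts in a library and 15 in total, robust quasi-likelihood fit of 4 group means and no covariate. P-values were adjusted over all 17604 genes tested by the Benjamini-Hochberg method, and a gene was called below 0.05. SE is the absolute log2 fold change over the square root of F, and 95% intervals use 12 residual degrees of freedom. P-values measure the spread between these libraries. Total counts of 7739487 to 15571389 set the precision, and no pair of libraries agreed within sampling noise. The scripts were tested on simulated data. DESeq2 1.42.0, other scalings and filters, left-out libraries and a term for the code prefix were run as alternatives.

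The members and all lists were chosen with earlier results of these data known. Members called, or without overlap between groups, are given with the value of every library. Of the other pathway genes, up to 3 called per list and comparison, with the largest change and a mean of at least 5 CPM, are named. A result that this rule would name is not reported here. Positions of the 32 members come from GENCODE M21 (GRCm38), matched by identifier.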

Additional observations from a re-analysis of the deposited data

Results flagged for a closer look

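In 196 sets of 4 libraries, covering each member and each summed list in each group, 12 had a highest or lowest library whose gap to its nearest neighbour, as a share of the whole range, was past Dixon's limit at the 95% level. Chance gives this in about 1 in 20 sets. Among members, Acat2, the thiolase that starts the pathway, had 182 CPM in ND_PMA replicate 4, against 158 to 161 CPM in the other 3. Cyp51 had 335 CPM in HFD_cont replicate 4, against 351 to 354 CPM. Tm7sf2 had 9.27 CPM in ND_PMA replicate 1, against 14.6 to 15.2 CPM. Nr1h3 had 11.7 CPM in HFD_PMA replicate 2, against 3.67 to 4.76 CPM, and 17 CPM in ND_cont replicate 3, against 9.86 to 11 CPM. The summed sterol steps, from Fdft1 to Dhcr7, had 2988 CPM in ND_cont replicate 2, against 2369 to 2459 CPM.

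Among the summed cell type markers, basal keratinocyte markers had 23780 CPM in HFD_PMA replicate 2, against 20050 to 20580 CPM, and 17710 CPM in HFD_cont replicate 3, against 18030 to 18060 CPM. Neutrophil markers had 257 CPM in ND_PMA replicate 2, against 85.3 to 114 CPM. Hair shaft and inner root sheath markers had 2789 CPM in HFD_PMA replicate 1, against 57.4 to 134 CPM, and 120 CPM in ND_PMA replicate 2, against 9.03 to 17.1 CPM. Skeletal muscle markers had 2437 CPM in HFD_cont replicate 1, against 5526 to 5839 CPM.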

How the results depend on the processing

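Over 341 refits of called member results under other settings, 267 kept the call, 74 lost it and 0 turned direction. Members called with diet in PMA-treated skin were 0 under every setting but DESeq2, which gave 1, and 0 to 0 with 1 library left out. With diet in untreated skin the 3 calls became 0 with the code prefix as a term (log2 fold changes 0.60, 0.53 and 0.77 for Mvk, Pmvk and Ebp) and 0 within the RHS libraries (0.62, 0.55 and 0.79), where 1 library makes up the high-fat side. They became 0 without the 3 libraries highest in hair markers, and 0 to 4 with 1 library left out. With PMA on HFD the 5 calls became 8 with upper-quartile scaling, 8 with a stricter filter, 3 with the prefix, 10 with the compared groups alone, 9 with DESeq2, 1 without the hair libraries and 1 to 9 with 1 library left out. With PMA on ND the 5 calls became 1 with the prefix, 3 with the compared groups alone, where Mvk had an adjusted p of 0.0585, 8 with DESeq2, and 4 to 6 with 1 library left out. Fewer libraries entered several of these fits, and for the rest the cause was not tested. With PMA on HFD, the prefix ended the calls of Tm7sf2, Hsd17b7 and Srebf1, and another member was called. No setting called an interaction in a member. Deviations of same-numbered libraries correlated weakly, between -0.067 and 0.202. Of 24 pairs, 2 were over 0.1, both between HFD_PMA and HFD_cont, and 8 of 16 libraries correlated best with their own number. A weak pairing by replicate number is therefore not excluded. With the replicate block, members called were 0 and 3 for diet in PMA-treated and untreated skin, 4 and 7 for PMA on HFD and ND, and 0 for the interaction. On HFD the block ended the calls of Tm7sf2 (-0.73, adjusted p = 0.0689) and Hsd17b7 (-0.64, 0.0593) and added Mylip, and on ND it added Nsdhl and Insig2. RLE and upper-quartile scaling moved the median of all genes by less than 0.1, and the median of the 19 enzymes kept its sign in all 5 comparisons.

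Over all genes, diet in PMA-treated skin gave 387 calls, 175 to 850 under other settings and 116 to 436 with 1 library left out. Diet in untreated skin gave 691, 171 to 1149 and 336 to 889. PMA on HFD gave 2101, 869 to 2615 and 1205 to 2469, and PMA on ND gave 2279, 453 to 2754 and 1763 to 2209. The interaction gave 1, 1 to 22 and 1 to 4. Leaving out the hair libraries and the fit within the RHS libraries were chosen after seeing the data. Depth limits Nr1h3 most, with 38 counts in its lowest library.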
